A study of Sus scrofa with 6 samples.

Results

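Bone morphogenetic protein (BMP) signalling was followed through 10 genes of the deposited expression table. They were picked by gene name, 3 ligands (BMP2, BMP4 and BMP7), 2 receptors (BMPR1A and BMPR2), 3 target genes of the inhibitor of DNA binding family (ID1, ID2 and ID3) and 2 secreted antagonists (GREM1 and FST). All 10 names were found among the 18007 genes of the table, each once. Porcine embryonic fibroblasts (PEFs) were compared with the porcine induced pluripotent stem cells (piPSCs) made from them. The PEF lines PEF5, PEF7 and PEF8 were grown from the ear tips of day 90 embryos (E90) of a Large White boar and a Meishan sow. piPSC5, piPSC7 and piPSC8 were derived from PEF5, PEF7 and PEF8, respectively, with doxycycline-inducible lentiviruses carrying Oct4, Sox2, Klf4 and c-Myc together with the M2rtTA transactivator, and they grew in LF2i medium on mouse embryonic fibroblast feeders. The piPSC lines depend on doxycycline, so their libraries hold cells in which the factors were induced, and the table does not tell feeder fragments from those of the piPSCs. One poly-A RNA-seq library was read per line, so each group has n = 3 and no line has a replicate of its own.

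BMP ligands are secreted dimers that bind a complex of type I and type II receptor kinases, and the receptors phosphorylate SMAD1, SMAD5 and SMAD9, which enter the nucleus with SMAD4. Among the first genes they turn on are the ID genes, whose products bind E proteins and keep them off DNA, and SMAD6 and SMAD7, which dampen the signal. Antagonists such as gremlin, noggin and follistatin bind ligands outside the cell. In embryonic tissue the pathway is known for patterning mesoderm and bone, and in cultured fibroblasts the ID genes respond to BMP and to serum.

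The library totals behind the FPKM values (fragments scaled to gene length and library total) ran from 11010629 to 17836510 fragments, and the fragments of every gene could be recovered from them. All 10 fibroblast marker genes were lower in piPSCs, with a summed level of 4492 to 6456 FPKM in PEFs and 131 to 223 in piPSCs. Of 10 pluripotency markers 6 are listed, and NANOG, SALL4 and ESRRB were under 0.1 FPKM in every library. SOX2 (0.129 to 3.01 FPKM in piPSCs) and LIN28B (0.281 to 8.90 FPKM) lay above every PEF library without passing the threshold, and KLF4 was lower in piPSCs. Sox2 and Klf4 were also carried by the lentiviruses, and the FPKM values do not tell transgene fragments from endogenous ones. The lower ID and pathway genes below were thus lower in the same libraries as the fibroblast markers, whose part in the result was not tested. In bulk RNA, fewer cells of a type and less RNA per cell cannot be told apart. Fragments of the Y-linked gene DDX3Y were counted only in line 8 (3439 in PEF8 and 4207 in piPSC8), and 3 other Y-linked genes had at most 1 fragment in lines 5 and 7. The study describes the lines as male, a description that the Y-linked counts bear out in line 8 alone.

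The stretches just upstream of ID2, ID3 and SMAD7 are shown first, since ID2 and ID3 have the largest changes of the 10 genes, and SMAD7, a feedback target, held the 1 palindromic SMAD element found in the windows searched. They were read from the RefSeq Sscrofa11.1 genome in the direction of the gene, all 3 lie on the minus strand, and capitals mark motif matches. For ID2 the window is chr3:127503298-127503457 (160 bases), for ID3 chr6:81424170-81424419 (250 bases) and for SMAD7 chr1:98543925-98544174 (250 bases). The 90 bases next to the RefSeq start of ID2 lie in the deposited ID2 model and are left out, and the SMAD7 window lies 1609 bp before the deposited SMAD7 model.
ID2: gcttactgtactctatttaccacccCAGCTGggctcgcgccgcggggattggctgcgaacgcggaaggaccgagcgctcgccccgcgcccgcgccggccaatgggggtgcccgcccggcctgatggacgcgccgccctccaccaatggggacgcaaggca
ID3: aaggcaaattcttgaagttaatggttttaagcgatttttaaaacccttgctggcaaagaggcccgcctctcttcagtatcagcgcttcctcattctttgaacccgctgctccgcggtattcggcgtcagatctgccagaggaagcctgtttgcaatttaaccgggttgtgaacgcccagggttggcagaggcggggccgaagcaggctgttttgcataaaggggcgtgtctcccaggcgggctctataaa
SMAD7: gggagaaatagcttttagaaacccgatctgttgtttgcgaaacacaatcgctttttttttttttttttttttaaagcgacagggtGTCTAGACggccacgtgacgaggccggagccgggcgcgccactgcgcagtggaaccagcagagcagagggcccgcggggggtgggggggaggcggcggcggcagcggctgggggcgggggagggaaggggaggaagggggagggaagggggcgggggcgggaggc
In the 250 bases before each RefSeq start, 4 motifs were searched on both strands, the GC-rich SMAD1/5 element GGCGCC, the BMP element that joins GGCGCC to GTCT over a spacer of 5 bases (and so contains the first), the SMAD palindrome GTCTAGAC and the E-box CAGCTG. The palindrome was found upstream of SMAD7, with its first base 165 bases before the start, and in 32 of 19556 promoters (0.164%). GGCGCC was found upstream of BMP2, BMPR1A and GREM1 and in 16.1% of all promoters. CAGCTG was found upstream of BMP2, BMP4, BMP7 and ID2 and in 13.6% of all promoters. The joined element, present in 0.0716% of promoters, was not found in the window of any of the 10 genes, and none of the 4 motifs was found in those of ID1, ID3, BMPR2 and FST. Beyond the 10 genes, the windows of SMAD7, SMAD6, ID4 and NOG were searched, and those of SMAD6, ID4 and NOG held none of the 4 motifs. These are matches of letters in a fixed window and say nothing of binding.

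Among the targets, ID3 showed the largest difference of the 10 genes and ID2 the next. ID3 (ENSSSCG00000039514, chromosome 6 from 81422546 to 81424169) encodes a helix-loop-helix protein without a DNA-binding region that titrates E proteins. PEF5 had 711 FPKM, PEF7 839 and PEF8 662, whereas piPSC5 had 8.45, piPSC7 15.4 and piPSC8 2.86. All PEF libraries lay far above all piPSC libraries. The PEF mean was 737 ± 91.6 FPKM and the piPSC mean 8.89 ± 6.27 (SD, n = 3 each). With limma on log2(FPKM + 1), ID3 fell by 6.45 on the log2 scale (SE 0.49, 95% confidence interval -7.63 to -5.27, adjusted p = 0.000320), which is 87.3-fold. ID3 was the 54th most abundant gene of the table in PEFs and the 5413th in piPSCs, and 0.201% of the tested genes had a more negative fold change.

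ID2 (ENSSSCG00000008645, chromosome 3 from 127499410 to 127503297), a second inhibitor of E proteins, was at 76.1, 64.6 and 60.8 FPKM in PEF5, PEF7 and PEF8. In piPSC5, piPSC7 and piPSC8 it was at 4.81, 11.2 and 0.440 FPKM. The groups did not overlap, and piPSC8 held 17 ID2 fragments against 254 in piPSC5 and 467 in piPSC7. The PEF mean was 67.2 ± 7.95 FPKM and the piPSC mean 5.48 ± 5.41 (SD, n = 3 each), and ID2 fell by 3.86 on the log2 scale (SE 0.72, 95% confidence interval -5.58 to -2.14, limma adjusted p = 0.00528), 14.5-fold. The deposited ID2 model lies inside a model on the other strand (ENSSSCG00000035726), whose level was between 0 and 0.942 FPKM. How reads shared by overlapping models were counted is not given, so their effect on the ID2 level is not known. Without piPSC8 the ID2 value was -3.01, and without piPSC7 it was -4.55. Both calls held in all 15 alternatives, with adjusted p between 0.000220 and 0.00267 for ID3 and between 0.00253 and 0.0220 for ID2.

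**Figure D1:**
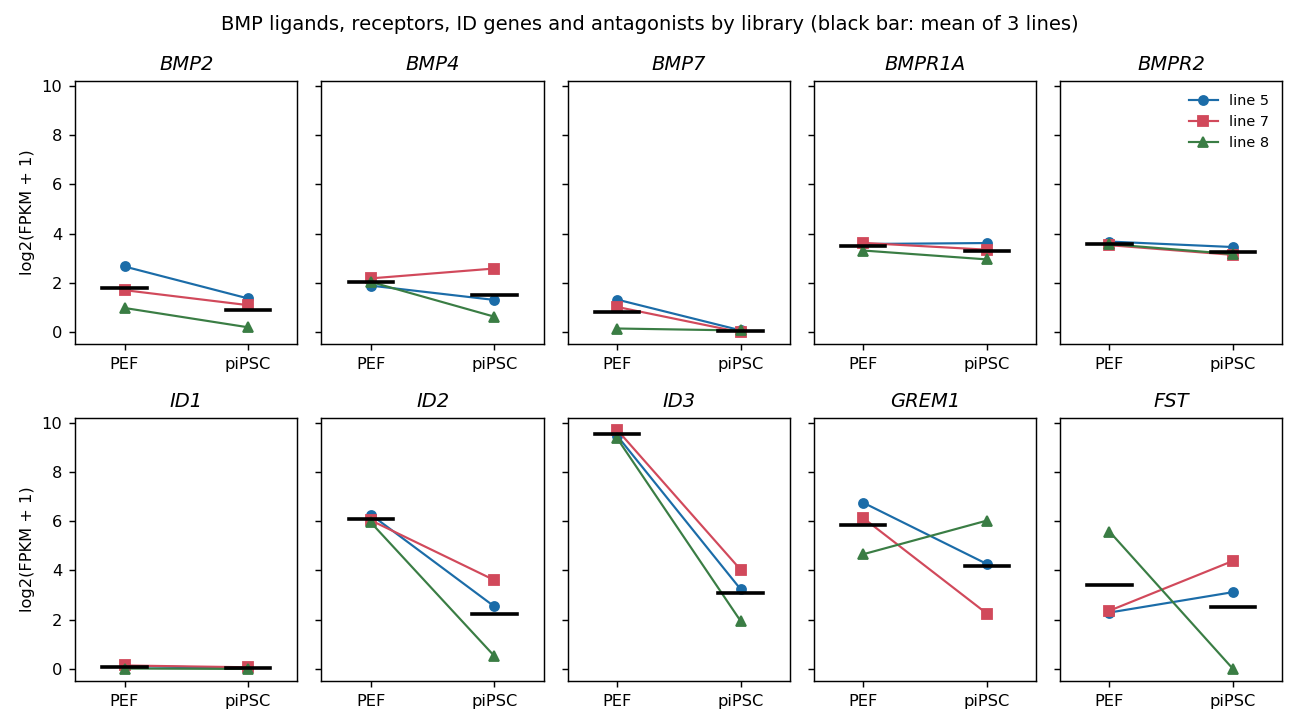
Level of each of the 10 genes as log2(FPKM + 1) in the PEF and piPSC library of line 5 (circles), line 7 (squares) and line 8 (triangles), joined by line, with the mean of 3 lines as a black bar. ID2 and ID3 go down steeply in all 3 lines, BMPR1A and BMPR2 are nearly level, and the lines of GREM1 and FST cross.

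The makeup of the ID family also differed between the libraries of the groups. The summed level of ID1 to ID4 was 799, 910 and 727 FPKM in PEF5, PEF7 and PEF8, and 13.8, 30.1 and 3.37 FPKM in piPSC5, piPSC7 and piPSC8. In PEFs ID3 made up 89.0%, 92.2% and 91.0% of this sum. In piPSCs it made up 61.4%, 51.1% and 84.9%, below every PEF library. The share of ID2 was 9.53%, 7.10% and 8.37% in PEFs and 35.0%, 37.2% and 13.1% in piPSCs. The ID2 shares in piPSCs all lay above those in PEFs. ID4, the fourth family member, was at 11.5, 6.40 and 4.23 FPKM in PEFs and at 0.472, 3.45 and 0.0678 FPKM in piPSCs. It fell by 2.04 on the log2 scale (limma adjusted p = 0.0265), a call lost in 5 of 15 alternatives (no filter, and without PEF5, PEF7, piPSC5 or piPSC8), and its value was -2.65 without piPSC7. These shares compare levels per length, and they carry no test. In piPSC8 they rest on 30 ID3 and 17 ID2 fragments, and the sum includes ID1, whose level is uncertain.

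**Figure D2:**
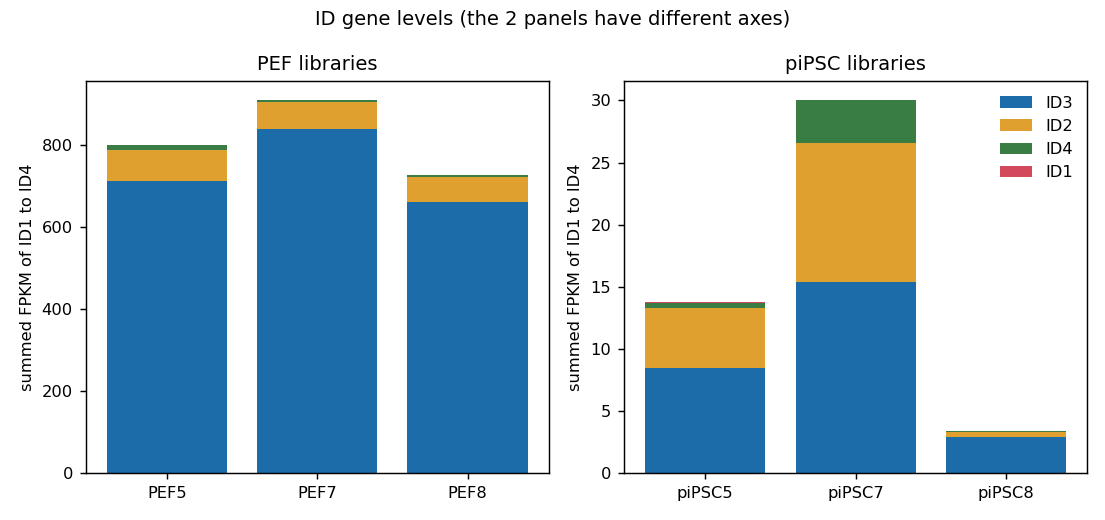
Summed FPKM of ID1 to ID4 in each library as stacked bars, PEF libraries on the left and piPSC libraries on the right, on different axes that both start at 0. ID3 fills most of each PEF bar, and ID2 takes 35.0% and 37.2% of the bars of piPSC5 and piPSC7.

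ID1 (ENSSSCG00000037016, chromosome 17 from 35316620 to 35322100), a standard readout of BMP signalling, was near the detection limit in both groups. Its fragments numbered 8, 9 and 1 in PEF5, PEF7 and PEF8, and 2, 3 and 0 in the piPSC lines of the same order, which is at most 0.102 FPKM. The count of 0 in piPSC8 allows up to 3 fragments. With a mean under 0.5 FPKM the gene was not tested, and counts this low were read neither as a difference nor as a lack of one. Its gene model is unusual. The counted length of 5254 bp compares with 998 bp for the mRNA of 2 exons in RefSeq, and the model ends 4358 bp beyond the RefSeq end. The whole model lies inside the deposited model of BCL2L1 on the other strand, which runs from 35315475 to 35415778, whereas the RefSeq model of BCL2L1 starts 48396 bp after the end of ID1. How reads shared by overlapping genes were counted is not given in the sources used here, and the library kit does not mark strand. Across the table, 462 of 861 protein-coding genes inside a model on the other strand (53.7%) had a mean under 0.5 FPKM, against 28.2% of the 16149 others. Whether overlap of models lowers the counts was not tested. Since the gene model is unusual and the counting of shared reads is not given, the ID1 level is uncertain in both groups. BCL2L1 itself was at 6.11, 7.31 and 8.89 FPKM in PEFs and at 2.08, 2.19 and 1.36 in piPSCs, a value that shares this doubt.

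**Figure D3:**
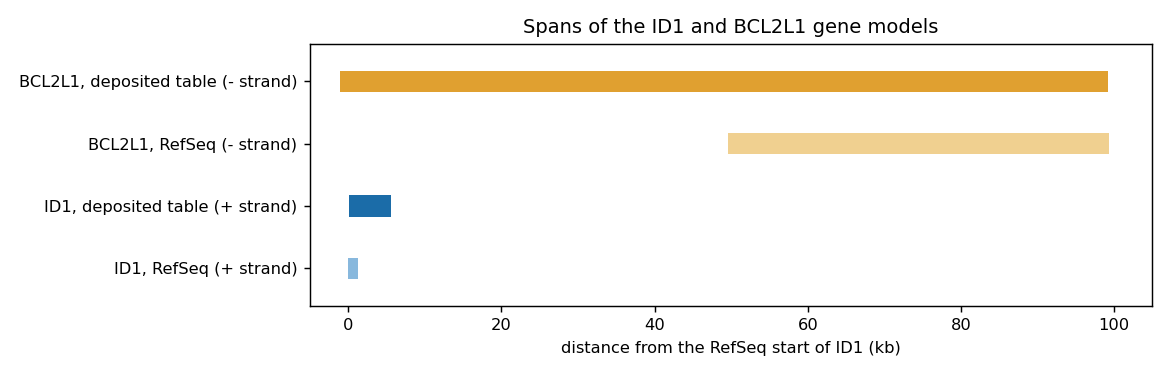
Spans of the ID1 and BCL2L1 gene models as bars to scale, in kb from the RefSeq start of ID1, from the deposited table and from RefSeq. The deposited ID1 model sits wholly inside the deposited BCL2L1 model, while the RefSeq models lie apart by 48396 bp.

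The 3 ligands were scarce in both cell types, and none of those tested passed the threshold. BMP2 (ENSSSCG00000039442, chromosome 17 from 15749836 to 15761194), an inducer of bone, was at 5.36, 2.27 and 0.980 FPKM in PEF5, PEF7 and PEF8 and at 1.59, 1.14 and 0.150 FPKM in piPSC5, piPSC7 and piPSC8. The groups overlapped, since PEF8 lay below piPSC5 and piPSC7, but each piPSC line was below its own PEF line. The log2 fold change was -0.90 (SE 0.51, 95% confidence interval -2.10 to 0.31, limma adjusted p = 0.176). With the line as a block the adjusted p was 0.0459, and the value was the same, under 2-fold. On other scales the BMP2 value was -1.58 (pseudocount of 0.1), -1.46 (equal sums) and -1.76 (voom), with adjusted p from 0.122 to 0.196.

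BMP4 (ENSSSCG00000005045, chromosome 1 from 183413653 to 183422839), the ligand that patterns early mesoderm, was at 2.72, 3.55 and 3.12 FPKM in PEFs. In piPSC5, piPSC7 and piPSC8 it was at 1.48, 5.01 and 0.550 FPKM, so piPSC7 had the highest level of all 6 libraries. The log2 fold change was -0.53 (SE 0.48, 95% confidence interval -1.69 to 0.63, limma adjusted p = 0.385). Without piPSC7 it was -1.07 (adjusted p = 0.0296), so that 1 library decides the call.

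BMP7 (ENSSSCG00000007501, chromosome 17 from 57584952 to 57676359), a ligand of kidney and eye development, was at 1.51 FPKM in PEF5, 1.04 in PEF7 and 0.111 in PEF8. In piPSC5, piPSC7 and piPSC8 it had 3, 0 and 2 fragments. The groups did not overlap, but PEF8 held only 6 fragments against 96 in PEF5 and 62 in PEF7. Its mean was under 0.5 FPKM and it was left out of the test. Summed over libraries, 164 fragments in PEFs and 5 in piPSCs gave a 25.0-fold higher level per total fragments in PEFs (95% exact interval 10.5 to 78.2, for counting error only and not for the spread between lines). Without the filter, limma gave an adjusted p of 0.0944.

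The sum of BMP2, BMP4 and BMP7 was 9.59, 6.86 and 4.21 FPKM in PEF5, PEF7 and PEF8 and 3.13, 6.16 and 0.751 FPKM in piPSC5, piPSC7 and piPSC8. The ranges overlapped through piPSC7. BMP4 made up 81.4% of the sum in piPSC7 and 73.3% in piPSC8, and BMP2 was the larger part in piPSC5, at 50.8%.

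The receptors had the smallest fold changes of the 8 tested genes, and neither passed the threshold. BMPR1A (ENSSSCG00000010360, chromosome 14 from 87743388 to 87891780), the type I receptor kinase also known as ALK3, was at 10.99, 11.4 and 8.97 FPKM in PEFs and at 11.3, 9.21 and 6.77 FPKM in piPSCs. The groups overlapped, and the log2 fold change was -0.20 (SE 0.22, 95% confidence interval -0.73 to 0.33, limma adjusted p = 0.472). BMPR2 (ENSSSCG00000016113, chromosome 15 from 105970321 to 106139772), the type II receptor that activates it, was at 11.8, 10.6 and 10.9 FPKM in PEFs and at 10.0, 7.82 and 8.02 FPKM in piPSCs. Its groups did not overlap, but the log2 fold change was -0.34 (SE 0.17, 95% confidence interval -0.74 to 0.06, limma adjusted p = 0.128). When libraries were rescaled to the median ratio over genes it was -0.59 (adjusted p = 0.0214), still under 2-fold. Both intervals leave out a fall of 2-fold or more on this scale.

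Neither antagonist passed the threshold, and in both the direction differed from line to line. GREM1 (ENSSSCG00000033657, chromosome 1 from 136617105 to 136629292) encodes gremlin, which binds BMP2 and BMP4. Its level was 107, 68.9 and 24.3 FPKM in PEF5, PEF7 and PEF8 and 18.2, 3.76 and 64.0 FPKM in piPSC5, piPSC7 and piPSC8. piPSC5 and piPSC7 lay below their PEF lines, and piPSC8 lay above PEF8. The log2 fold change was -1.67 (SE 0.98, 95% confidence interval -4.01 to 0.68, limma adjusted p = 0.193), and -2.59 without piPSC8 (adjusted p = 0.0451).

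FST (ENSSSCG00000016892, chromosome 16 from 32806341 to 32811382) encodes follistatin, which binds activins and, less tightly, BMPs. Its level was 3.89, 4.15 and 46.7 FPKM in PEF5, PEF7 and PEF8 and 7.69, 19.9 and 0 FPKM in piPSC5, piPSC7 and piPSC8. PEF8 was the highest library, with 734 fragments, and piPSC8 the lowest, with 0, which allows up to 3. The log2 fold change was -0.91 (SE 1.33, 95% confidence interval -4.08 to 2.26, limma adjusted p = 0.588). It turned to 0.17 without PEF8 (adjusted p = 0.920) and to 0.34 without piPSC8 (adjusted p = 0.810), so its direction rests on line 8.

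Over the 10 genes, 8 were tested, 2 were lower in piPSCs (ID2 and ID3) and 0 were higher by the rule of an adjusted p below 0.05 with a change of 2-fold or more, against 16.7% of all 12428 tested genes lower, 20.2% higher and 36.8% in either direction. The share of called members is thus not above that of all genes. Of the 8, 3 had groups that did not overlap, all lower in piPSCs (BMPR2, ID2 and ID3), against 26.8% of tested genes lower without overlap, 37.3% higher and 64.1% without overlap in either direction. The median log2 fold change of the 8 was -0.90, and that of all tested genes 0.20.

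Each piPSC line was then set against its own PEF line, 1 library against 1, with no replicate check. For ID3 the log2 ratios of (FPKM + 1) were -6.24 in line 5, -5.68 in line 7 and -7.42 in line 8, and for ID2 they were -3.73, -2.43 and -5.42. ID2 and ID3 were the 2 members at least 2-fold lower in all 3 lines, as were 11.9% of tested genes, and 0 members were at least 2-fold higher in all 3, as 12.8% of tested genes were. For GREM1 the ratios were -2.49, -3.88 and 1.36, and for FST 0.83, 2.02 and -5.58. These 2 genes differed by at least 2-fold in opposite directions in different lines, as did 1.32% of tested genes, and where the GREM1 ratio of a line was positive the FST ratio was negative and the reverse. The ratios of BMP4 were -0.58, 0.40 and -1.41, and those of BMP2 were -1.30, -0.61 and -0.78.

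**Figure D4:**
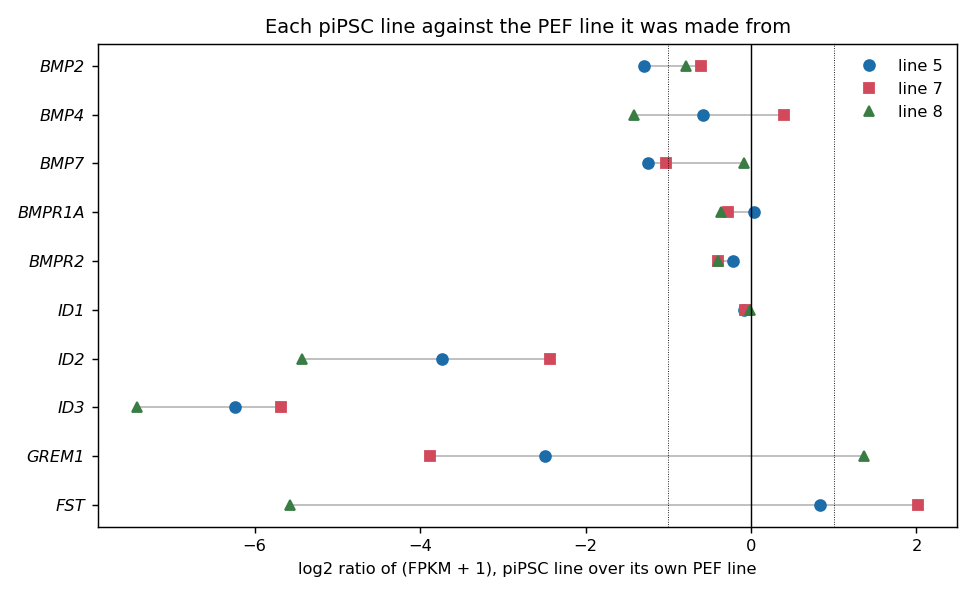
Log2 ratio of (FPKM + 1) of each piPSC line over its own PEF line for the 10 genes, with line 5 as circles, line 7 as squares and line 8 as triangles, and dotted lines at 2-fold. ID2 and ID3 lie left of the 2-fold line in all 3 lines, and GREM1 and FST lie on both sides of 0.

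Within the piPSC lines, ID2, ID3, BMP4 and FST shared one order, highest in piPSC7, then piPSC5, and lowest in piPSC8. This pattern was singled out after the values were seen. It was shown by 4 of the 8 tested members and by 24.8% of all tested genes, and by 15 of the 54 tested genes of the wider pathway lists (27.8%). The library totals were 15050204 fragments in piPSC5, 11892011 in piPSC7 and 11010629 in piPSC8, and the fibroblast marker sums were 223, 131 and 159 FPKM. Their part in this order was not tested. GREM1 had the reverse order.

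In PEFs the order of mean levels per length was ID3, ID2, GREM1, FST, BMPR2, BMPR1A, BMP4, BMP2, BMP7 and ID1. The ranges of neighbours in that order overlapped, except between ID3 and ID2, between BMPR1A and BMP4 and between BMP7 and ID1. In piPSCs the order was GREM1, FST, BMPR1A, ID3, BMPR2, ID2, BMP4, BMP2, BMP7 and ID1. There every pair of neighbours overlapped except BMP2 and BMP7, and the range of ID3, which stood clear of the rest in PEFs, overlapped those of both receptors in piPSCs.

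The rest of the pathway was taken from lists of 79 further genes, of which 68 are in the table and 54 were tested. Of these, 24 were lower in piPSCs and 4 were higher, and their median log2 fold change was -0.92 against 0.20 over all tested genes. The called share is 28 of 54, beside 36.8% of all tested genes (16.7% lower and 20.2% higher). The lists overlap for SMAD6, SMAD7 and BAMBI, which are counted once in these totals.

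Of 13 other target genes tested, 9 were lower and 0 higher, against 16.7% and 20.2% of all tested genes. The median log2 fold change of the 13 was -2.04. Among the 4 not called, HEY1, DLX5 and RUNX2 had positive log2 fold changes of 0.90, 0.96 and 0.55 (limma adjusted p = 0.398, 0.490 and 0.454). SMAD6, the inhibitory SMAD induced by BMP itself, was at 13.3, 22.1 and 14.1 FPKM in PEFs and at 0.758, 1.52 and 0.853 FPKM in piPSCs, and fell by 3.08 on the log2 scale (limma adjusted p = 0.000428). SMAD7 (ENSSSCG00000004507), the inhibitory SMAD of both branches whose upstream window is printed above, was at 16.8, 14.6 and 8.70 FPKM in PEFs and at 1.12, 5.96 and 1.45 FPKM in piPSCs. It fell by 2.07 (limma adjusted p = 0.0133). As for ID2 and ID3, the piPSC library with the most SMAD7 was piPSC7. The transcription factors TBX3, GATA2 and MSX1, which act in limb, blood and craniofacial development, fell by 3.06, 2.68 and 2.56 on the log2 scale (limma adjusted p = 0.0112, 0.0105 and 0.00340). TBX3 and GATA2 were at 28.9 and 19.5 FPKM in PEF8, against at most 5.52 and 4.16 FPKM in the other PEF libraries, and without PEF8 their falls were 4.70-fold and 3.89-fold. BAMBI, a decoy receptor and BMP target, differed by -1.31 on the log2 scale (limma adjusted p = 0.198) and was at 7.06 FPKM in piPSC7 against 0.0388 in piPSC8.

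Of 14 SMADs and SMAD regulators tested, 5 were lower and 0 higher, against 16.7% and 20.2% of all tested genes. The SMADs that carry the signal did not pass the threshold, with log2 fold changes of -0.09 for SMAD1 (limma adjusted p = 0.857), 0.60 for SMAD5 (0.0520), -0.95 for SMAD9 (0.0512) and 0.15 for SMAD4 (0.437), and the signs of SMAD1 and SMAD4 turned in 2 of 15 alternatives each. SMAD9 was at 7.47, 6.25 and 8.32 FPKM in PEFs and at 3.28, 1.77 and 5.65 FPKM in piPSCs, with no overlap. The ubiquitin ligases SMURF1 and SMURF2, which mark SMADs and receptors for breakdown, fell by 2.01 and 1.55 on the log2 scale (limma adjusted p = 0.00330 and 0.00295). With SMAD6 and SMAD7 they make up 4 of the 5 lower genes, and the other is CTDSP1, a phosphatase that acts on SMADs.

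Of 11 other receptors and co-receptors tested, 3 were lower and 2 higher, against 16.7% and 20.2% of all tested genes. ENG (endoglin), a co-receptor of BMP9, TGF-beta and related ligands, was at 15.4, 19.5 and 16.6 FPKM in PEFs and at 1.30, 0.170 and 0.249 FPKM in piPSCs, and fell by 3.59 on the log2 scale (limma adjusted p = 0.000414). TGFBR3 (betaglycan) fell by 1.86 (adjusted p = 0.0113). ACVRL1, the type I receptor that works with endoglin, was covered by 172, 191 and 198 fragments in the PEF libraries but by 1, 0 and 0 in the piPSC libraries. It fell by 1.51 on the log2(FPKM + 1) scale, which understates low genes (limma adjusted p = 0.00196). ACVR2B, a type II receptor for activins and BMPs, was at 0.421, 0.207 and 0.248 FPKM in PEFs and at 5.37, 2.11 and 4.41 FPKM in piPSCs, and rose by 1.88 (limma adjusted p = 0.00353). The other gene that rose was the co-receptor RGMB. ACVR1, the type I receptor also known as ALK2, differed by -0.10 on the log2 scale (limma adjusted p = 0.800), with a sign that turned in 2 of 15 alternatives.

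Of 9 other antagonists tested, 6 were lower and 1 higher, against 16.7% and 20.2% of all tested genes. The median log2 fold change of the 9 was -2.40. NBL1 (ENSSSCG00000024669), a DAN family antagonist, fell by 5.87 on the log2 scale, from 268, 276 and 402 FPKM in PEFs to 2.65, 12.1 and 2.15 in piPSCs (limma adjusted p = 0.000497), and by 6.52 without piPSC7. CHRDL1, a chordin-like binder of BMP4, fell by 5.07 (adjusted p = 0.000602), and FSTL3, a follistatin relative, fell by 3.34 (adjusted p = 0.000519). NOG (noggin) was at 27.7, 22.8 and 20.5 FPKM in PEFs and at 0.750, 14.1 and 0 FPKM in piPSCs. It fell by 3.04 (limma adjusted p = 0.0342), a call lost in 7 of 15 alternatives (a pseudocount of 0.1, no filter, and without PEF5, PEF7, PEF8, piPSC5 or piPSC8), and its value was -4.21 without piPSC7 and -2.25 without piPSC8. Chordin (CHRD) differed by -0.81 on the log2 scale (limma adjusted p = 0.354). SOSTDC1, which binds BMPs and a WNT co-receptor, was the 1 that rose, from 0, 1 and 0 fragments (PEFs) to 57, 51 and 296 (piPSCs). Its log2 fold change was 2.16 (limma adjusted p = 0.0232), and 1.43 without piPSC8. The sum of GREM1, FST, NOG and CHRD was 143, 107 and 93.0 FPKM in PEFs and 28.0, 43.3 and 65.0 FPKM in piPSCs, and GREM1 made up 98.4% of it in piPSC8. This sum leaves out other listed antagonists, among them NBL1 and FSTL1, so the share is not one of all antagonists. FSTL1 was at 606, 471 and 535 FPKM in PEFs and at 239, 210 and 134 FPKM in piPSCs.

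Of 5 proteases that process BMPs or chordin, 3 were lower and 0 higher, against 16.7% and 20.2% of all tested genes. BMP1, which cleaves chordin and procollagen and is no ligand in spite of its name, fell by 2.95 on the log2 scale (limma adjusted p = 0.000137). FURIN, which cuts BMP precursors, fell by 2.32 (adjusted p = 0.000362), and PCSK5, a related convertase, fell by 1.52 (adjusted p = 0.0445), a call lost in 8 of 15 alternatives. Of the 2 other ligands tested, BMP5 rose by 1.94 (limma adjusted p = 0.0243), from 3, 4 and 0 fragments (PEFs) to 354, 189 and 26 (piPSCs), a call lost without any 1 of the libraries other than piPSC8, and its value was 2.58 without piPSC8. None of the 3 E proteins that ID proteins bind was called, at log2 fold changes of -0.01 for TCF4, 0.33 for TCF12 and 0.63 for TCF3 (limma adjusted p = 0.970, 0.448 and 0.0288), the last under 2-fold.

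**Figure D5:**
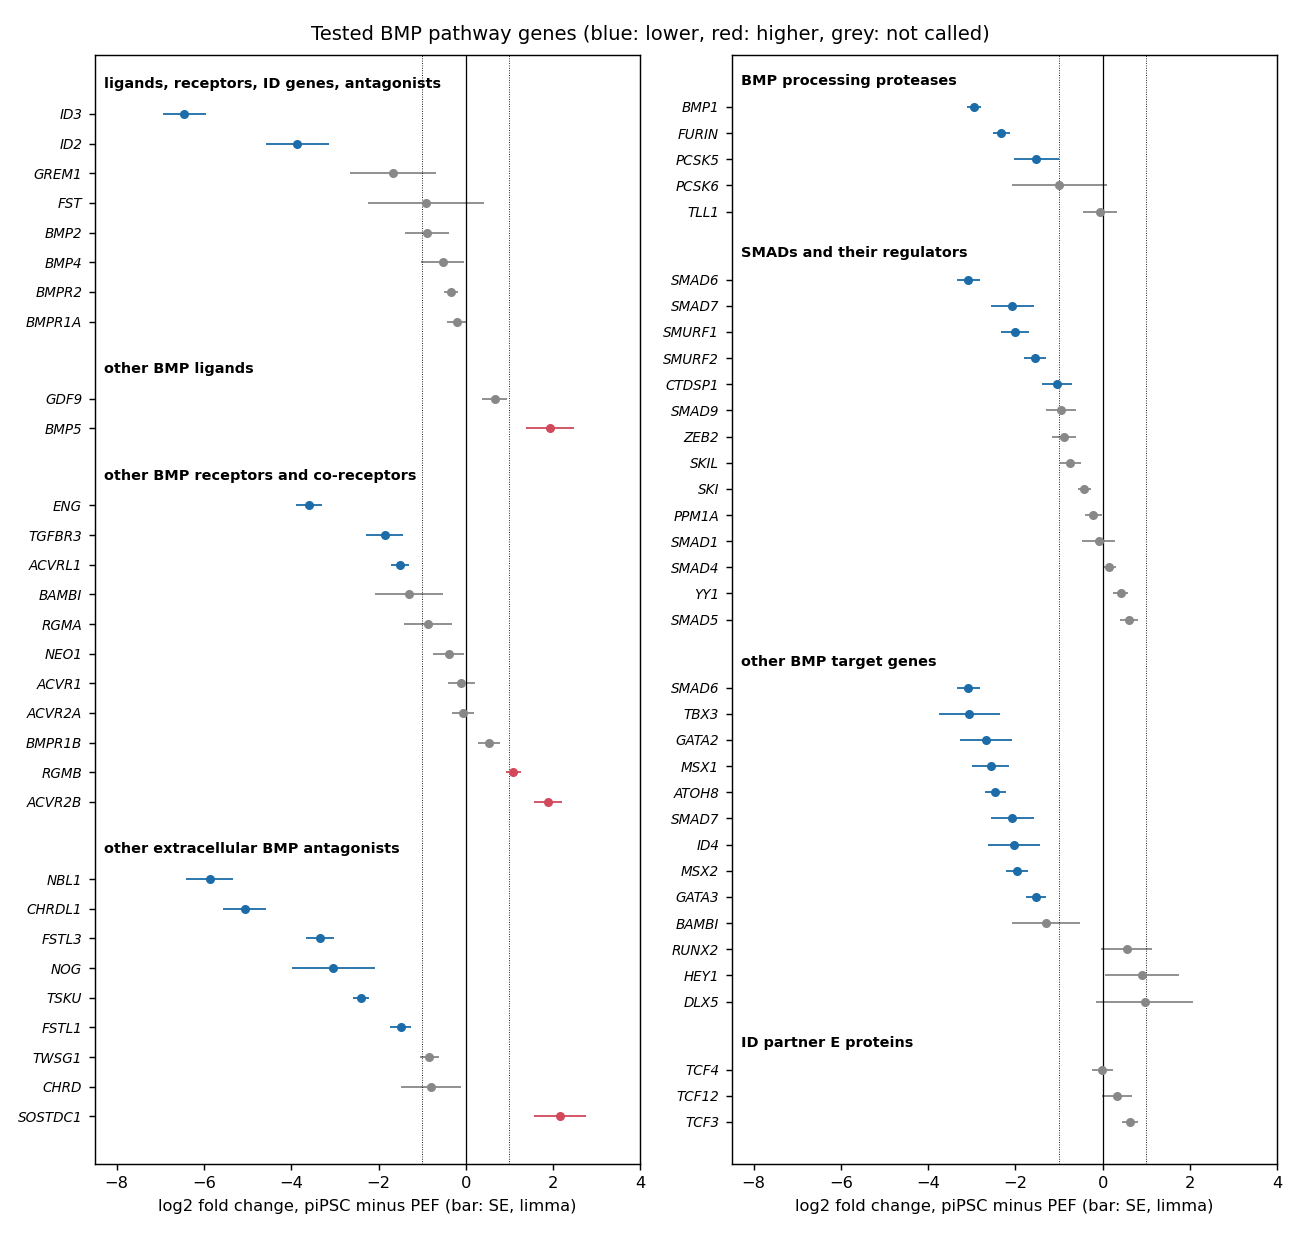
Log2 fold change (piPSC minus PEF) with its SE from limma for each tested pathway gene, grouped by list, with dotted lines at 2-fold, blue for lower, red for higher and grey for genes not called. Targets, antagonists and inhibitory SMADs lie mostly to the left, while the 2 receptors BMPR1A and BMPR2, SMAD1, SMAD4, SMAD5 and SMAD9 lie within 2-fold.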

How the data were processed

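The authors deposited FPKM values per gene for 3 PEF and 3 piPSC libraries, made by the sequencing company from poly-A paired-end reads on Sscrofa11.1. The submitters' processing notes name Bowtie2 2.2.3, HISAT2 2.1.0 and HTSeq 0.6.0 without their roles. For each of the 18007 genes, the smallest length that made its FPKM values whole fragments was taken (tolerance 2e-06 fragments plus 2e-08 of the count), which gave the fragments.

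Groups were compared with limma 3.58.1 in R 4.3.3 (trend, not robust, two-sided, no pairing) on log2(FPKM + 1), keeping the 12428 genes whose mean FPKM reached 0.5, with Benjamini-Hochberg adjustment over all of them. A call needed an adjusted p below 0.05 and a change of 2-fold or more. With 1 library a line, p-values measure the spread between lines. The scripts were tested on simulated data. Promoters were read from RefSeq in Python 3.11.15; 99.6% of 14040 shared symbols lay at overlapping positions. NBL1 and SMAD7, listed by identifier, were named from a gene table.

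The members and lists were chosen with earlier results of these data known. The text names the 10 members, up to 4 called genes per list with the largest change, NOG, CHRD, BAMBI, SMAD1, SMAD4, SMAD5, SMAD6, SMAD7, ACVR1 and ID4, and the 3 nearest patterns of 3 members. CTDSP1, RGMB, SMAD9, SOSTDC1, FSTL1, HEY1, DLX5, RUNX2, TCF3, TCF4 and TCF12 were named after their values were seen. The lines pair the libraries, since each piPSC line came from the PEF line of its number. Deviations from group means correlated at 0.0921, 0.0946 and 0.0800 for the same line and between -0.121 and 0.0553 for others. Alternatives were the line as a replicate block, a pseudocount of 0.1, the filter removed or raised to a mean of 1, quantile normalization, no trend, rescaling to the median ratio or to equal sums, voom on fragments, and leaving out each library.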

Additional observations from a re-analysis of the deposited data

How the results depend on the processing

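ID2 and ID3 were called under all 15 alternatives. Of the other tested members, BMP4 and GREM1 gained a call when 1 library was left out. BMP4 reached -1.07 (limma adjusted p = 0.0296) without piPSC7, over a range of -1.07 to -0.091, and GREM1 reached -2.59 (adjusted p = 0.0451) without piPSC8, over a range of -2.59 to -0.70. FST reversed to 0.17 without PEF8 and to 0.34 without piPSC8, over a range of -1.85 to 0.34 when 1 library is left out and of -2.07 to 0.34 over all 15 alternatives. BMP2 ranged from -1.76 to -0.46. With the line as a replicate block, 2 members, 28 wider pathway genes and 4485 genes in all were called, against 2, 28 and 4575 without it, and the block changed no call of a member. Wider calls ran from 22 to 31. Rescaling moved the share of calls that were higher from 54.8% to 42.8% (median ratio, 1884 higher and 2516 lower) and 41.4% (equal sums, 1986 and 2815), and the median of all tested genes from 0.20 to -0.01 and -0.06. With a pseudocount of 0.1, the line 8 log2 ratio of FST went from -5.58 to -8.87 and that of BMP2 from -0.78 to -2.11. After rescaling to the median ratio, the line 5 ratio of BMPR1A went from 0.04 to -0.23. In both settings 2 members stayed at least 2-fold lower in all 3 lines, and 2 differed in opposite directions. BMP7 fell under the filter and varied between PEF lines, with 6 fragments in PEF8 against 96 in PEF5 and 62 in PEF7. Few fragments and an uncertain gene model limit ID1. The 3 lines a group limit FST and GREM1, whose intervals span more than 4 log2 units.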

Other observations

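The genes nearest in pattern to ID3, ID2 and GREM1 over the 6 libraries were taken by the root mean square difference of profiles centred on their own means, in log2 units of (FPKM + 1). For ID3 they were DKK3 (0.204), a secreted relative of WNT inhibitors at 163, 181 and 148 FPKM in PEFs and 1.85, 3.11 and 0.199 in piPSCs, then CAVIN3 (0.405), a coat protein of caveolae, and C1QTNF1 (0.438). For ID2 they were GSN (0.185), the actin-severing protein gelsolin at 87.1, 85.5 and 68.9 FPKM in PEFs and 7.24, 10.8 and 0.523 in piPSCs, then the tetraspanin CD151 (0.235) and the annexin ANXA2 (0.327). For GREM1 they were FBLN7 (0.416), the collagen crosslinking enzyme LOX (0.538) and BHLHE41 (0.562). Like GREM1, these genes were lowest in piPSC7 and highest among piPSC libraries in piPSC8, an order that picking them by likeness to GREM1 favours. LOX was at 21.8, 3.14 and 47.5 FPKM in piPSC5, piPSC7 and piPSC8. These are likenesses over 6 libraries that share their 2 groups, and they carry no test.

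Other marker lists gave mixed results, beside 16.7% of all tested genes lower and 20.2% higher. The summed level of trophoblast markers, which hold the BMP targets GATA2 and GATA3, was 10.2 to 35.3 FPKM in PEFs and 0.726 to 2.02 in piPSCs, and 5 of 5 tested markers were lower. Primitive endoderm markers summed to 51.2 to 87.0 FPKM in PEFs and 0.512 to 3.50 in piPSCs. PDGFRA, which is also in the fibroblast list, made up most of the PEF sums at 50.7 to 76.9 FPKM. SOX17, the other tested marker, was at 2.13, 0.0412 and 7.42 FPKM in PEFs and at 0 in all piPSC libraries, and was not called. GATA4, at most 1.08 FPKM in PEFs, was also at 0 in all piPSC libraries. GATA6 was at most 0.136 FPKM in PEFs and at 0.549, 0.815 and 0 in piPSC5, piPSC7 and piPSC8. Epithelial markers summed to 11.5 to 36.9 and 0.6004 to 8.61 FPKM, most of it CLDN6 in the PEFs, the 1 marker of 6 tested, and CDH1, EPCAM, KRT8, KRT18 and ESRP1 were under 1 FPKM in every library. Neural progenitor markers ran from 6.22 to 17.9 FPKM in PEFs and from 2.75 to 42.6 in piPSCs, with 1 of 3 tested markers higher. That marker was NEUROG2, at most 0.242 FPKM in PEFs and at 27.5, 36.4 and 1.33 FPKM in piPSC5, piPSC7 and piPSC8. It made up most of the sums in piPSC5 and piPSC7. The other tested markers, PAX6 and NES, had log2 fold changes of -0.35 and -1.31 and were not called (limma adjusted p = 0.651 and 0.224).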
